A study of Saccharomyces cerevisiae with 9 samples.

Results

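The S2A mutant is a strain of budding yeast (Saccharomyces cerevisiae) in which the largest subunit of RNA polymerase II, Rpb1, ends in a chimeric carboxy-terminal domain (CTD). In that domain 8 heptad repeats with alanine in place of serine 2 are followed by 7 wild-type repeats, so that about as many repeats lack serine 2 as keep it. Its response to salt was measured on 3 of the 9 arrays of the study, those labelled CTD2A, which were taken as the S2A arrays by that label alone. The other arrays were 3 of a wild-type strain (labelled CTD14, with 14 wild-type repeats) and 3 of the S5A strain (labelled CTD5A, with 5 repeats carrying alanine in place of serine 5, followed by 7 wild-type repeats). The cells of every strain lacked their own RPB1 gene and lived on a plasmid copy, so all 3 strains share that background, including the wild-type control. Each array compared RNA of cells exposed to 0.7 M NaCl for 30 min with RNA of the same strain before salt, both grown at 30 °C in rich medium. A value is therefore a log2 ratio of salt-treated over unstressed RNA within 1 strain, positive where salt raised the transcript, and it cannot check the genotype of the strain.

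The CTD is a tail of repeated heptads that is phosphorylated as the polymerase moves along a gene. Serine 5 is phosphorylated near the start of the gene by Kin28, and serine 2 later, mostly by Ctk1, and the phosphorylated tail recruits factors for elongation, chromatin modification and 3′ processing. Salt shock activates the MAP kinase Hog1 (the HOG pathway), raises glycerol production and sets off the environmental stress response, in which stress defence genes are induced while genes for ribosome production are repressed.

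The files gave 6868 features (genes and non-coding RNAs), of which 5645 had a value on all 9 arrays and were tested. A feature was called induced or repressed where its mean over the 3 S2A arrays differed from 0 in limma at a Benjamini-Hochberg adjusted p below 0.05. A stricter call also asked for a mean of at least 1 on the log2 scale, a 2-fold change. The labels do not say that the arrays came from separate cultures, so the p-values measure a spread between arrays. That spread was estimated from all 9 arrays of the 3 strains, with information shared across features, and not from the S2A arrays alone. An SD given beside a mean is that of the 3 S2A arrays alone. No array had its dyes exchanged (the RNA after salt was in the same colour on all 9), and a dye effect would not cancel in the response of a single strain. The values of each array were centred near 0 by the authors, so a change is relative to the median feature, and a change in the amount of RNA per cell would not show. S2A replicate 1 lacked a value for 1163 features, replicate 2 for 156 and replicate 3 for 464, and across genes the S2A arrays correlated with each other at 0.922 to 0.944. S2A replicate 1 had the widest spread of the 3 (SD over features 1.20, against 1.04 and 1.08). It gave the highest of the 3 values for 492 of the 652 features induced 2-fold (75.5%). S2A replicate 3 stood apart for small RNAs, which are described below.

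Salt changed 68.7% of the features tested in the S2A mutant, 3880 of 5645. Of these 1784 were induced (31.6%) and 2096 repressed (37.1%). The counts given below for each gene list are to be read against these shares. At least 2-fold, 652 features were induced (11.6%) and 740 repressed (13.1%), 1392 in all (24.7%). Which of these 2 counts was larger depended on the processing, with 694 induced and 681 repressed after median centring. Each of the 1392 had the same sign on all 3 S2A arrays, which their selection on these same arrays makes likely. Large changes were mostly inductions: 82 features rose at least 8-fold and 23 fell at least 8-fold, whereas 22 rose and 0 fell at least 32-fold. The 3 arrays gave similar values for most features, with a median range of 0.37 log2 units between the highest and the lowest array.

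The strongest induction was that of STL1, the glycerol transporter of the plasma membrane. Its log2 ratio was 9.24, 7.60 and 8.29 on replicates 1, 2 and 3, a mean of 8.38 ± 0.82 (SD, n = 3), which is 332-fold (adjusted p = 7.94e-09). It was followed by RTC3 (8.64, 6.97 and 7.37), a small protein linked to RNA metabolism, and HSP12 (8.51, 7.31 and 6.75), a membrane-associated heat shock protein. For these 3 genes replicate 1 was the highest array. The putative kinase gene FMP48 varied least among the most induced genes, with 7.50, 7.30 and 7.32. TKL2, the minor transketolase of the pentose phosphate pathway, rose to 7.81, 6.69 and 6.80, and MPC3, a subunit of the mitochondrial pyruvate carrier, to 7.67, 6.61 and 6.85. CTT1, the cytosolic catalase, gave 7.31, 6.15 and 6.38. PHM7 (6.64, 7.03 and 7.48) and the hexose transporter gene HXT5 (4.59, 6.38 and 7.14) were the 2 of the 12 in which replicate 1 was not the highest array. HXT5 had the widest range of the 12, 2.55 log2 units. FMP45 (mean 6.16), the aldehyde dehydrogenase gene ALD3 (5.96) and FMP16 (5.96) completed the 12 most induced genes, whose adjusted p was at most 2.18e-07. For each of the 12 the S2A arrays overlapped the wild-type arrays.

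**Figure D1:**
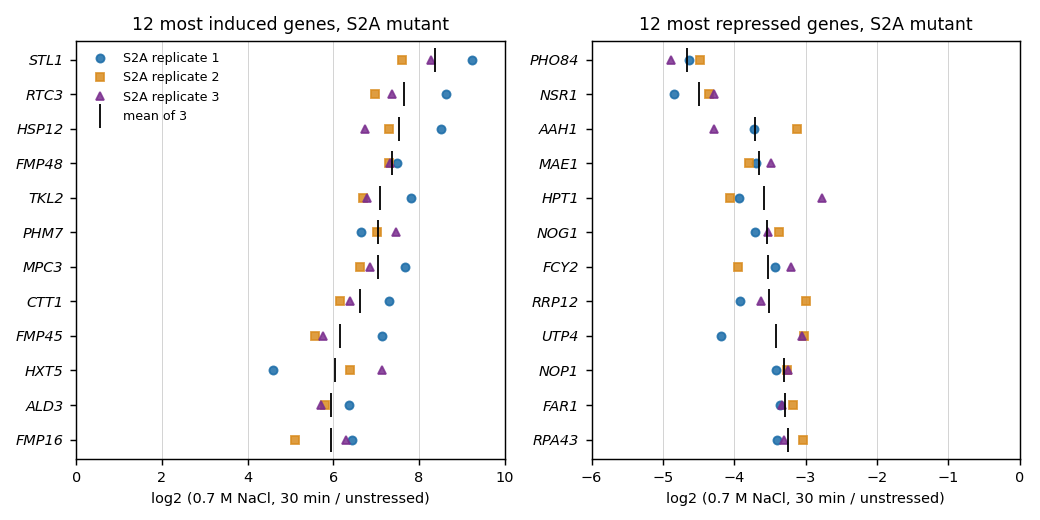
Log2 ratio of salt-treated over unstressed RNA (x axis) of the 12 most induced genes (left) and the 12 most repressed genes (right) in the S2A mutant, 1 symbol per array and a vertical bar for the mean of 3. Replicate 1 (circles) is the highest array for 10 of the 12 induced genes, and STL1 and PHO84 mark the ends of the range with means of 8.38 and -4.67.

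Other genes of glycerol metabolism were induced beside STL1. Of 15 genes of glycerol synthesis, uptake and breakdown 13 were tested, of which 8 were induced and 3 repressed, and their median was 1.29 against -0.04 over all features. GPD1, the glycerol 3-phosphate dehydrogenase that starts glycerol synthesis under osmotic stress, rose to 4.97, 4.71 and 4.98 (mean 4.88 ± 0.15). GPP2, the phosphatase of the next step, had a mean of 5.62, and its paralog GPP1 rose to 1.29. GPD2, the paralog of GPD1 known for redox balance without oxygen, fell on each array (-0.59, -1.16 and -0.52). FPS1, the channel through which glycerol leaves the cell, fell to -0.56, and ASK10, an activator of Fps1, was the lowest of the list at -0.85. GPD2 was not called without replicate 2 (-0.56, adjusted p = 0.0568 in limma).

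Genes of the storage carbohydrates trehalose and glycogen were induced almost throughout. All 9 trehalose genes were induced at least 2-fold, with a median of 2.67 and array medians of 2.86, 2.43 and 2.73. Both enzymes of synthesis and of breakdown were among them: TPS2, the trehalose 6-phosphate phosphatase, reached 4.44 and TPS1, the synthase, 2.73, and the neutral trehalase NTH1 reached 1.60. Of 10 glycogen genes 9 were induced, with a median of 1.97. The branching enzyme GLC3 rose to 2.61, the synthase GSY2 to 1.98 and the phosphorylase GPH1, which breaks glycogen down, to 0.92. The highest value of the list was that of PIG2, a regulatory partner of the phosphatase Glc7, at 3.17. PGM2, which makes the glucose 1-phosphate used by both pathways, rose to 4.38, 3.45 and 3.90.

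Genes of the HOG pathway moved less than its targets. More of them fell than rose, as over all features (37.1% repressed and 31.6% induced). Of 15 sensors and kinases 4 were induced, 0 of them by 2-fold (1 without replicate 2 or without replicate 3), and 8 repressed. At least 2-fold, 4 were repressed (26.7%, against 13.1% over all features), and 3 without replicate 1 or without replicate 3. HOG1 itself (-0.02) and PBS2, the kinase that activates it (-0.19), were not called. SHO1 and MSB2, membrane proteins of the Sho1 branch, were both at -1.11, and SSK22, a MAP kinase kinase kinase of the Sln1 branch, was lowest at -1.19. SSK1, the response regulator of that branch, rose to 1.31, 0.95 and 0.74. Of 6 phosphatases that act on Hog1 or assist them, 4 were induced and 1 repressed. PTP2 and PTP3, the tyrosine phosphatases, rose to 0.77 and 0.78 and PTC2 fell to -1.60.

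Of 11 osmotic and general stress transcription factors 8 were induced and 2 repressed, where 31.6% and 37.1% of all features were. MSN2, which encodes a zinc finger activator of general stress genes, rose to 1.62, while the gene of its paralog MSN4 fell to -0.78. HOT1, whose product acts with Hog1 at STL1 and GPD1, rose to 0.66, and CIN5, a basic leucine zipper factor, was the highest at 1.85. Targets of Hot1 that the study listed were induced for 54 of the 59 tested, with 3 repressed and a median of 2.48. As a list of the study, it is not taken as independent evidence of direction. Of 16 sodium and potassium transport genes 9 were induced and 5 repressed. The sodium pump genes ENA1 (2.34), ENA2 (2.25) and ENA5 (2.21) gave almost the same values, and their near-identical sequences may share probes, so they count as 1 observation. HAL5, a kinase that stabilises potassium transporters, rose to 1.42, and the potassium transporter gene TRK1 fell to -0.88. In the calcineurin and calcium list, 8 of 14 genes were induced, led by RCN2, a regulator of calcineurin, at 3.41.

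Small stress proteins formed the list with the highest median, 4.79. Each of the 12 hydrophilins and related genes tested was induced, 11 of them at least 2-fold, and the array medians were 4.88, 4.45 and 4.43. DDR2 (5.92), GRE2 (5.41), SPI1 (5.18) and GRE1 (5.06) were among the highest, and YGP1, a secreted glycoprotein gene, was lowest at 0.94. Of 28 chaperone genes tested 10 were induced and 12 repressed, with a median of -0.01, shares near the 31.6% and 37.1% over all features. The induced members were small heat shock proteins and stress forms of Hsp70 and Hsp110: HSP42 at 3.83, HSP26 at 2.67, SSA4 at 2.65 and SSE2 at 1.83, with the disaggregase HSP104 at 1.49. The repressed members were chaperones of growing cells, among them the Hsp40 YDJ1 (-2.04), the mitochondrial HSP60 (-1.73) and SSC1 (-1.77), and the ribosome-bound SSB1 (-1.47) and SSB2 (-1.27), which are near-identical copies. SSA4 stood at 3.53, 2.48 and 1.96 on the 3 arrays. Of 32 antioxidant genes 16 were induced and 7 repressed (4 without replicate 2). CTT1 led, followed by GAD1, glutamate decarboxylase, at 3.56 and the mitochondrial peroxiredoxin PRX1 at 2.96, while the peroxiredoxin AHP1 (-1.16) and the thioredoxin reductase TRR1 (-1.09) fell.

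The most repressed gene was PHO84, the high-affinity phosphate transporter, with -4.64, -4.48 and -4.88 on the 3 arrays and a mean of -4.67 ± 0.20 (adjusted p = 1.09e-07). NSR1, a nucleolar protein of ribosome assembly, followed at -4.84, -4.36 and -4.29. AAH1, adenine deaminase, gave -3.73, -3.12 and -4.29, and the malic enzyme gene MAE1 -3.70, -3.80 and -3.49. The arrays lay apart from 0 by several times their own spread in each case. HPT1 (mean -3.59), which salvages hypoxanthine and guanine, and FCY2 (-3.53), which imports purine bases and cytosine, were also among the 12 most repressed genes. The others were the ribosome assembly genes NOG1 (-3.54), RRP12 (-3.52), UTP4 (-3.42) and NOP1 (-3.31), the RNA polymerase I subunit gene RPA43 (-3.24), and FAR1 (-3.29), an inhibitor of the G1 cyclin kinase. The adjusted p of the 12 was at most 1.73e-06. For 11 of them the S2A and wild-type arrays overlapped.

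**Figure D2:**
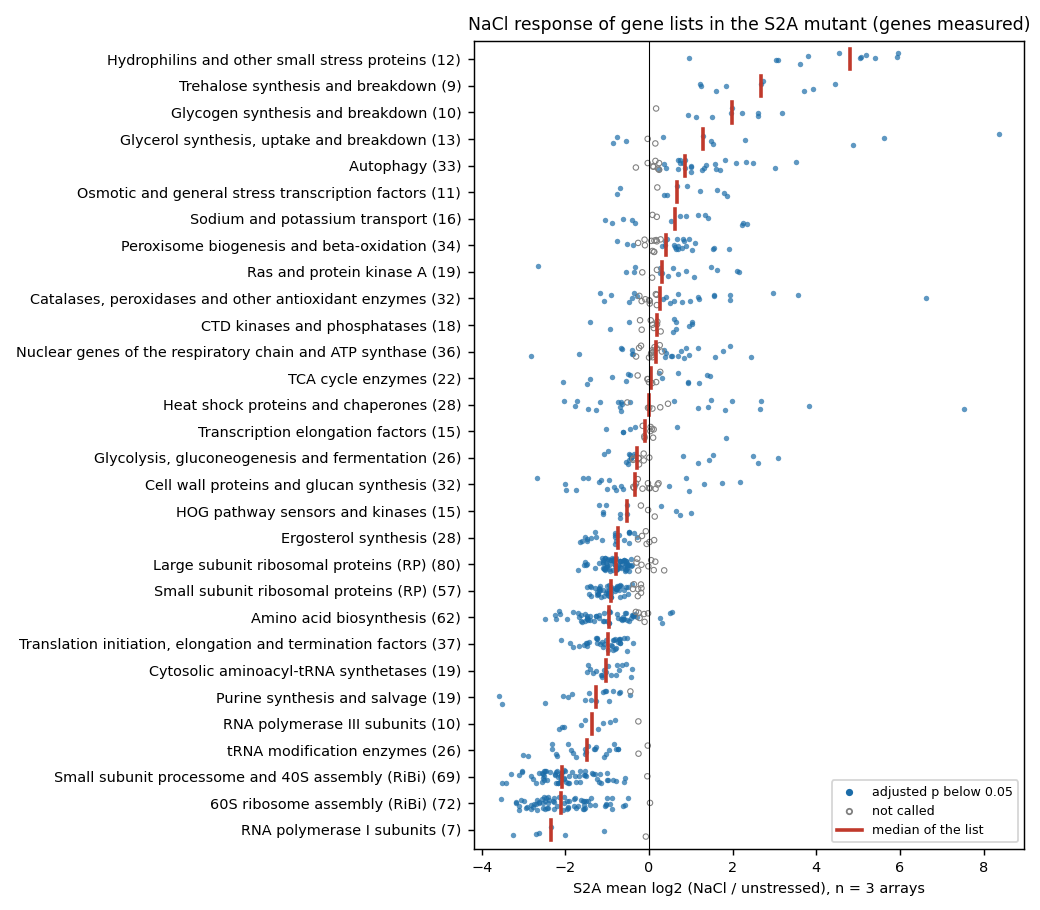
Mean log2 ratio in the S2A mutant (x axis, n = 3 arrays) of each tested gene of 30 lists (rows, number of genes in brackets), filled where the adjusted p was below 0.05, with a bar at the list's median. Medians run from -2.34 for RNA polymerase I subunits to 4.79 for hydrophilins and other small stress proteins.

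Ribosome assembly was repressed almost throughout. Of 69 genes of the small subunit processome and 40S assembly 68 were repressed, 62 of them at least 2-fold, with array medians of -2.09, -1.98 and -2.07. Of 72 genes of 60S assembly 71 were repressed, 65 of them at least 2-fold, with array medians of -2.08, -2.03 and -2.16. The exceptions were RRP7 (-0.04) and RSA1 (0.02), neither of which was called. These medians differed little between arrays. Ribosomal protein genes fell less: 50 of 57 for the small and 71 of 80 for the large subunit were repressed, with medians of -0.91 and -0.79, and 0 were induced (1 of the large subunit without replicate 2). At least 2-fold, 21 and 23 of them were repressed, and the second count was 11 without replicate 2. Their array medians varied more, from -1.14 to -0.72 for the small and from -1.05 to -0.53 for the large subunit. Many of these proteins have 2 near-identical gene copies whose signals may not be separate. RPL3, a single-copy gene, stood at -1.10 and RPS3 at -0.71. Mitochondrial ribosomal proteins did not follow, with 14 induced (9 without replicate 3) and 24 repressed of 69 and a median of -0.12. Their repressed share was near the 37.1% over all features.

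The other machinery of protein synthesis fell with the ribosome. All 37 translation factor genes and all 19 cytosolic aminoacyl-tRNA synthetase genes tested were repressed, with medians of -0.99 and -1.03. The lowest were TIF4631, the initiation factor eIF4G, at -2.10 and GRS1, glycyl-tRNA synthetase, at -1.48. Of 26 tRNA modification genes 24 were repressed, with a median of -1.48. TRM11, a guanosine methyltransferase, was lowest at -3.01. Among genes that control ribosome production, TOD6, a repressor of ribosome assembly genes, fell most (-3.25, -2.75 and -2.99). SFP1, an activator, rose to 0.58, and MAF1, a repressor of RNA polymerase III, rose to 0.67.

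The genes of the 3 nuclear RNA polymerases differed in degree. For polymerase I, 6 of 7 subunit genes were repressed, each by at least 2-fold, with a median of -2.34; the largest subunit gene RPA190 stood at -2.63. For polymerase III, 9 of 10 were repressed with a median of -1.37, and the largest subunit gene RPO31 stood at -1.22. For polymerase II, 7 of 12 were repressed and 1, RPB4, was induced, with a median of -0.93. RPO21, the chromosomal name of the gene for Rpb1, fell to -0.96, -0.93 and -0.95 in S2A (mean -0.95 ± 0.01, adjusted p = 1.60e-05), a nearly constant value. On the wild-type arrays its mean was -0.63, and the difference of -0.32 had a 95% interval from -0.64 to 0.01. In these strains the transcript comes from the plasmid copy.

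The enzymes that write and erase CTD phosphorylation were mostly modest in their changes. Of 18 CTD kinase and phosphatase genes 7 were induced and 3 repressed, with a median of 0.19. CTK1, the main serine 2 kinase, stood at 0.19 and was not called, and CTK2, its cyclin, rose to 0.64. SGV1, also known as Bur1, a kinase of early elongation that acts on serine 2, fell to -0.47. FCP1, the main serine 2 phosphatase, fell to -0.93, and RTR1, a serine 5 phosphatase, rose to 1.04. ESS1, a prolyl isomerase that reshapes the CTD, was lowest at -1.40. Of 12 genes for proteins that bind or depend on serine 2 phosphorylation 4 were induced (2 without replicate 1) and 4 repressed. PCF11 and PAF1, which act in termination and in elongation, rose to 0.85 and 0.94, while SPT6 (-0.57) and the exonuclease gene RAT1 (-1.02) fell. In 15 elongation factor genes, SPT5 (-1.02) was lowest and SUB1 (1.84), a coactivator that also acts in elongation, was highest. Of 30 termination and 3′ processing genes 10 were induced (6 without replicate 1) and 11 repressed, and of 41 splicing genes 16 were induced and 12 repressed. Over all features 31.6% were induced and 37.1% repressed.

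Biosynthesis was repressed in most pathways examined. Of 62 amino acid biosynthesis genes 52 were repressed and 4 induced (2 without replicate 3), with a median of -0.95 and the lowest value for HIS1, the first enzyme of histidine synthesis, at -2.49. Purine synthesis and salvage genes were repressed for 18 of 19, with a median of -1.27. ADE4, the first enzyme of the pathway, stood at -2.48. Ergosterol synthesis genes were repressed for 22 of 28 and induced for 0, with ERG11, the lanosterol demethylase, lowest at -1.65. Of 18 amino acid permease genes 11 were repressed, yet PUT4, the proline permease, rose to 4.43, 3.89 and 4.95 and stood far from the rest of the list. The next highest permease gene was AGP2 at 1.46.

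Genes of carbon metabolism moved in both directions. Among 26 glycolytic and fermentative genes 7 were induced and 11 repressed (5 without replicate 2 and 6 without replicate 3), shares near those over all features. The glucokinase GLK1 (3.09), the hexokinase HXK1 (2.60) and the aldehyde dehydrogenase ALD4 (2.48) rose, while HXK2, the main hexokinase on glucose (-0.49), and PDC1, pyruvate decarboxylase (-1.08), fell. Of the 9 hexose transporter and sensor genes tested, HXT1 rose to 3.26 and HXT5 to 6.04, and HXT3 fell to -1.45. In the respiratory list of 36 genes, CYC7 rose to 2.45 and CYC1, the gene of the other cytochrome c isoform, fell to -2.83, the 2 extremes of the list. Autophagy genes rose without exception among those called, 25 of 33, with a median of 0.86. ATG8, whose product coats the autophagosome, reached 2.49, ATG39, a receptor for nuclear autophagy, 3.51 and ATG1, the initiating kinase, 1.15, 0.91 and 0.94 on the 3 arrays. Of 34 peroxisome genes 20 were induced and 3 repressed. Of 33 proteasome genes 12 were induced, none by 2-fold, a share near the 31.6% over all features. Of the others 1 was repressed, where 37.1% of all features were, and 20 were not called.

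In the Ras and protein kinase A list 12 of 19 genes were induced and 4 repressed (2 without replicate 1). The shares over all features were 31.6% and 37.1%, here and for the lists that follow. The catalytic subunit gene TPK2 (1.49) and the kinase gene YAK1 (2.10) rose. RAS1 fell to -2.94, -2.53 and -2.52, while RAS2 rose to 1.12, 0.52 and 1.03. Cyclin genes and the inhibitors listed with them were repressed for 10 of 15. CLB2 (-2.05) and CLB1 (-1.88), the mitotic cyclins, and CLN2 (-1.61), a G1 cyclin, fell most after FAR1, whereas PCL1 rose to 0.74. Of 32 cell wall genes 15 were repressed and 6 induced, from UTR2, a chitin transglycosylase, at -2.67 to CWP1, a mannoprotein, at 2.17. Histone genes were mostly not called, with 2 of 11 repressed and HHO1, the linker histone, lowest at -1.26.

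RNAs of the small classes gave a different picture on 1 array. The median log2 ratio of 117 tRNA features was 0.97 and 0.83 on S2A replicates 1 and 2 but -0.26 on replicate 3, and the number above 0 was 115, 116 and 45. For 62 small nucleolar RNA (snoRNA) features, which guide the modification of ribosomal RNA, the medians were 0.81, 0.48 and -0.59, with 61, 52 and 8 above 0. Replicate 3 was the lowest S2A array for 161 of these 179 features, against 27.1% of all features. The other arrays of the study had tRNA medians from 0.97 to 1.88, apart from S2A replicate 2 at 0.83. With all 3 arrays 48 of 117 tRNAs and 5 of 62 snoRNAs were induced in S2A, and it was 27 and 0 without replicate 1, 30 and 1 without replicate 2, and 81 and 27 without replicate 3. The medians of the S2A means moved from 0.51 to 0.91 for tRNAs and from 0.25 to 0.65 for snoRNAs. The protein-coding median on replicate 3, -0.03, was the nearest to 0 of the 3 S2A arrays. What sets replicate 3 apart was not tested. The widest range over the S2A arrays was that of a glutamate tRNA feature, tE(UUC)Q, with 2.57, 1.07 and -1.53. The next 2 were the open reading frames YCL041C (-0.55, 2.16 and 2.50) and YOL013W-A (3.24, 0.27 and 2.03).

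**Figure D3:**
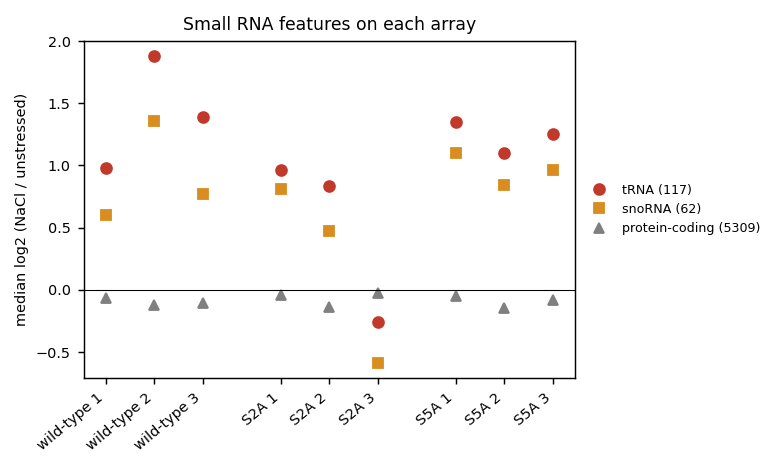
Median log2 ratio of salt-treated over unstressed RNA (y axis) of 117 tRNA, 62 snoRNA and 5309 protein-coding features on each of the 9 arrays (x axis). S2A replicate 3 is the only array on which the tRNA and snoRNA medians, -0.26 and -0.59, lie below 0.

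Set against the wild-type strain, the S2A response was called different for 0 of 5645 features (0%) in limma at an adjusted p of 0.025 or less. The lowest adjusted p was 0.569, and 479 features had an unadjusted p below 0.05, where 282 would be expected if none differed. Of the 479, 363 were protein-coding, and 260 of these were higher in S2A. Features share the same arrays, and the excess was not tested. The 95% interval of the difference had a median half-width of 0.39 log2 units, and for 5033 features (89.2%) it lay wholly within 1 log2 unit of 0, so that for these features a 2-fold difference in response lies outside the interval. The others had a wider interval or a larger difference. These values take no account of the pairing by replicate number. With the replicate block 0 features were called, 819 had an unadjusted p below 0.05 (lowest adjusted p 0.254) and the interval of 5161 features (91.4%) lay within 1. Of the 652 features induced 2-fold in S2A 545 were also induced 2-fold in wild-type, which is 83.6% of the S2A and 74.4% of the wild-type list. Of the 740 repressed 2-fold 644 were shared, 87.0% of the S2A and 83.7% of the wild-type list. No feature was called 2-fold in opposite directions. Of the S2A 2-fold calls 10 were not called in wild-type at any size, 7 induced and 3 repressed, and none of the 10 was called different between the strains.

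The interval of the S2A minus wild-type difference was -0.96 to 0.78 for STL1, -0.55 to 0.63 for CTT1 and -0.79 to 1.04 for HSP12. It was -0.53 to 0.51 for NSR1 and -0.44 to 0.09 for NOP1. As lists, ribosome genes lay slightly higher in S2A, being repressed less. The median difference was 0.18 for ribosome assembly (108 of 141 above wild-type) and 0.15 for ribosomal proteins (112 of 137). Over all features it was 0.01, with 2886 of 5645 above. The array medians of the strains overlapped for both ribosome lists. Other lists lay lower in S2A than in wild-type. The median difference was -0.24 for chaperones (26 of 28 below wild-type) and -0.21 for purine genes (17 of 19). It was -0.13 for amino acid biosynthesis (52 of 62) and -0.14 for aminoacyl-tRNA synthetases (17 of 19), so these 2 repressed lists fell slightly more in S2A. None of these shifts was tested. The features of lowest p for a higher value in S2A were YER137C, RHO5 and COG8. YER137C, a gene of unknown function, had 0.44, 0.62 and 1.05 in S2A and a mean of -0.28 in wild-type. RHO5, a small GTPase gene, had 0.82, 0.36 and 0.47 against a mean of -0.29. COG8, a Golgi transport gene, fell less in S2A, with a mean of -0.25 against -0.91. In the other direction they were RDN5-1, a 5S ribosomal RNA, and the mitochondrial intron genes AI2 and BI3. RDN5-1 had 1.08, 0.05 and -0.63 in S2A, lowest on replicate 3, and a mean of 1.93 in wild-type. BI3 fell to -0.96, -1.25 and -1.13 in S2A and had a mean of -0.36 in wild-type, and AI2 had means of -0.97 and -0.17. None of these 6 passed the adjustment over all features.

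A difference of over 1 log2 unit was found for 77 features, 73 of them lower in S2A, and 46 of the 77 were tRNAs and 16 snoRNAs. Without S2A replicate 3 there were 31 such features, with 8 tRNAs and 4 snoRNAs among them. Protein-coding features made up 14 of the 31, against 6 of the 77 with all 3 arrays. On average the 117 tRNAs lay lower in S2A than in wild-type, each of the 117 by its mean over 3 arrays and 111 of them without replicate 3. The S2A array medians of the tRNAs (0.97, 0.83 and -0.26) all lay below those of wild-type (0.98, 1.88 and 1.39), by little for replicate 1 of each strain, whereas the snoRNA medians overlapped, with S2A replicate 1 at 0.81 and wild-type replicate 1 at 0.61.

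**Figure D4:**
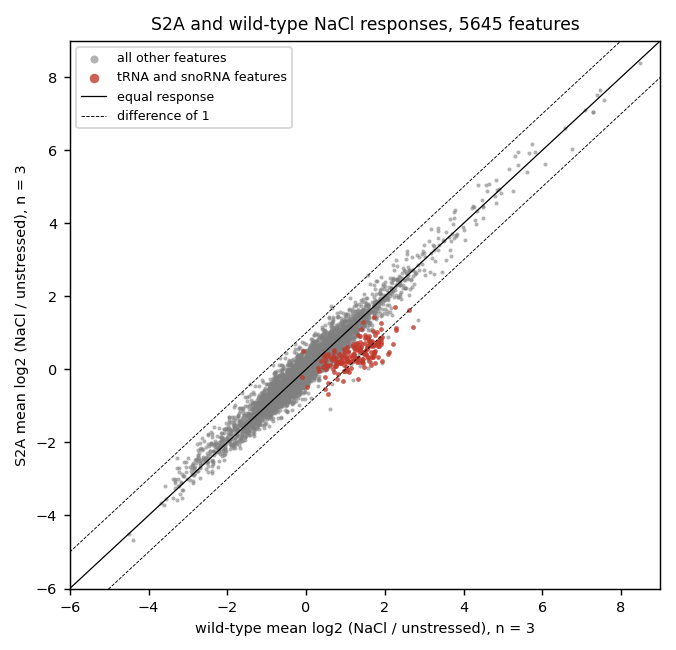
Mean log2 ratio in S2A (y axis) against that in wild-type (x axis) for 5645 features, n = 3 arrays each, with tRNA and snoRNA features in red, a line of equal response and dashed lines at a difference of 1. Most features lie between the dashed lines, and 62 of the 77 features outside them are tRNAs or snoRNAs. Without S2A replicate 3 (not drawn) 31 features differed by over 1, among them 8 tRNAs, 4 snoRNAs and 14 protein-coding features.

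The contrast with the other mutant gave more calls. S5A differed from S2A for 187 features (3.31%) at an adjusted p of 0.025 or less, 85 higher and 102 lower in S5A. Of these, 95 were induced in S2A and lower in S5A, and 78 were repressed in S2A and higher in S5A. This count depended on the arrays included and was 0 without S2A replicate 1, without S2A replicate 3 or without S5A replicate 1. Fewer arrays per strain also let fewer differences pass, so a lost call does not show that a difference came from that array. The S2A and S5A means of STL1 were 8.38 and 7.26, and those of PHO84 were -4.67 and -3.02. Ribosomal protein genes gave 0 of these calls, and ribosome assembly genes 39 of 141. The medians of both lists were nearer to 0 in S5A. They were -0.83 in S2A and -0.45 in S5A for ribosomal proteins, and -2.09 and -1.13 for ribosome assembly. For ribosomal proteins the array medians ran from -1.08 to -0.63 in S2A and from -0.60 to -0.28 in S5A.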

How the data were processed

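RNA of 3 strains was measured on 9 tiled NimbleGen arrays, grouped by the strain in the labels. The authors deposited log2 ratios per feature, normalized by them; the tools and genome build are not given in the sources used here. The direction, salt over unstressed, was taken from the channel labels and the methods. One mean per strain was fitted with limma 3.58.1 in R 4.3.3 (lmFit, contrasts, eBayes) to the 5645 features valued on all 9 arrays, with p-values adjusted over all of them. The script was tested on simulated data. Symbols came from RefSeq, assembly R64, and matched 5984 features. Sequences, gene lengths and introns were not used here.

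The 52 gene lists and the comparisons were chosen with earlier results of these data known. By rule the text names the 12 highest and 12 lowest called means, anchors and extremes of each list, the 3 lowest p in each direction for S2A minus wild-type, RPO21 and the 3 widest ranges over the S2A arrays. Not every gene so chosen is printed. Other genes were picked after their values were seen. Arrays with the same replicate number deviated together from their strain means (across genes, r = 0.15, 0.39 and 0.29 for S2A and wild-type), so the labels' numbers were taken to pair these strains. For S2A and S5A the values were 0.13, 0.12 and 0.06, and no pairing was assumed. Other scalings, filters, error models and adjustments, a replicate block and leaving out each array were tried. The number of arrays limits the precision.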

Additional observations from a re-analysis of the deposited data

Results flagged for a closer look

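The responses of S2A and S5A were compared by the contrast of their means in limma, and 187 features differed at an adjusted p of 0.025 or less. Among the genes named here, those induced in S2A and lower in S5A had S5A minus S2A differences of -1.81 for ATG39, -1.42 for HSP42, -1.33 for GAD1, -1.22 for ATG8, -1.19 for PGM2, -1.16 for HXK1, -1.09 for TPS2, -1.04 for GLC3, -0.89 for GSY2, -0.80 for ATG1, -0.80 for TPS1 and -0.68 for NTH1. CWP1, also induced in S2A, was 1.22 higher in S5A. Those repressed in S2A and less repressed in S5A had differences of 1.65 for PHO84, 1.497 for UTP4, 1.38 for NOG1, 1.33 for RRP12, 1.29 for PHO3, 1.20 for TRM11, 1.14 for RPA43, 1.08 for SSK22, 1.05 for BI3, 1.01 for FCY2 and 0.57 for NOP1. Each of these calls is among those lost without S2A replicate 1, without S2A replicate 3 or without S5A replicate 1. No gene was called different between S2A and wild-type by the same kind of test.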

How the results depend on the processing

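The counts of features changed in S2A kept within 1.5 times their value under all 19 alternatives run: 3471 to 4005 changed and 1342 to 1445 changed 2-fold with 1 array left out, and 1282 (arrays scaled to a common spread) to 1629 (features with 2 of 3 values per strain admitted) under the other settings for the latter. Several of the alternatives left the S2A means unchanged and could move only the p-values. Among them were leaving out a wild-type or S5A array, Storey's q-value and the replicate block. Of the 1392 features changed 2-fold, 1259, 1327 and 1332 were called so again, in the same direction, without S2A replicate 1, 2 and 3. Median centring moved the share of induced calls from 46.0% to 49.4%. At least 2-fold, 652 features were induced and 740 repressed in the main analysis. The counts were 694 and 681 with median centring. They were 847 and 782 where features with 2 of 3 values per strain were admitted, so the larger direction changed in both settings. S2A minus wild-type gave 0 calls in every setting run; with the replicate block 819 features had an unadjusted p below 0.05 and the lowest adjusted p was 0.254, and without S2A replicate 1 the lowest adjusted p was 0.0393. The S5A minus S2A count moved most: 70 with quantile normalization, 54 where arrays were scaled to a common spread, 88 where features with 2 of 3 values per strain were admitted, 315 with the replicate block, 423 with array weights, 414 with Storey's q-value, and 0 to 275 with 1 array left out (12 without S5A replicate 2, 6 without S5A replicate 3, 61 without wild-type replicate 3). Scaling and quantile normalization remove a difference in spread by construction; the cause of the other shifts was not tested.

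Of 160 genes named, 148 kept their direction and side of the threshold in every setting, though several settings could not change the direction. The sign changed for genes near 0: HOG1 was 0.030 with median centring and -0.051 to 0.039 with 1 array left out, RRP7 0.0094 with median centring, 0.013 with array weights and -0.10 to 0.061 with 1 array left out, RSA1 -0.033 with array weights and -0.086 to 0.099, RDN5-1 -0.084 with array weights and -0.29 to 0.56, and tE(UUC)Q -0.23 to 1.82. COG8, GPD2, SOL3 and REC104 lost their call in some settings, and CTK1, PBS2, YCL041C and tE(UUC)Q gained one. CTK1 was called without replicate 3 (0.36, adjusted p = 0.0442 in limma). The medians of 7 of 52 lists changed sign, all of them near 0 except that of the snoRNAs, which ran from -0.03 without replicate 1 to 0.65 without replicate 3. The tRNA and snoRNA counts without replicate 3 were added after seeing the data. The length, intron and promoter motif shares that had been planned were not run. Signal over background was not used here, and the number of arrays limits what could be called.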

Other observations

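Paralogous genes moved apart in the S2A mutant in several pathways. They were picked after their values had been seen, so they carry no test as a group. In the pentose phosphate pathway TKL2 rose to 7.10 and TKL1 fell to -1.20, GND2 rose to 4.92 and GND1 fell to -0.64, and SOL4 rose to 4.95 and SOL3 fell to -0.36. Opposite signs within a pair were also seen for GPD1 and GPD2 (4.88 and -0.76), HXK1 and HXK2 (2.60 and -0.49), CYC7 and CYC1 (2.45 and -2.83) and RAS2 and RAS1 (0.89 and -2.66). The means in wild-type had the same signs, for example 7.08 for TKL2 and -1.14 for TKL1.

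Genes of phosphate and metal uptake were repressed beside PHO84. PHO3, a constitutive acid phosphatase, fell to -3.08, -2.78 and -3.03, and the repressible acid phosphatase genes PHO5, PHO11 and PHO12, which are near-identical in sequence, had means of -1.51, -1.45 and -1.56. VTC3, VTC4 and VTC1, which make polyphosphate, stood at -1.67, -1.63 and -1.13, and the regulators PHO4 and PHO81 at -1.33 and -1.27. The copper transporter CTR1 fell to -2.87, -2.96 and -2.77, the metal reductase FRE1 to a mean of -2.72, and the iron uptake genes FTR1 and FET3 to -2.59 and -1.09. INO1, the enzyme of inositol synthesis, rose to 2.51, 3.06 and 3.43. These genes too were picked after their values had been seen.

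Of the 14 features of the mitochondrial genome with a value on every array, 9 were repressed in S2A and 0 induced. The shares over all features were 37.1% and 31.6%. The S2A array medians of the group were -0.50, -0.53 and -0.74 for replicates 1, 2 and 3. The wild-type array medians were -0.11, -0.24 and -0.26. The S2A mean lay below the wild-type mean for 13 of the 14, BI3 and AI2 included, against 2759 of 5645 over all features. The median of the means was -0.61 in S2A, -0.21 in wild-type and -0.32 in S5A. No feature of this group passed the adjustment (lowest adjusted p = 0.569 in limma), 4 had an unadjusted p below 0.05, and the group was looked at because BI3 and AI2 were among the features of lowest p.

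Of 34 genes of meiosis and sporulation listed, only 8 had a value on every array, and all 8 were induced, from 0.45 for REC104 to 2.44 for REC102. The filter on missing values decides which of them were seen.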
